A study of Mus musculus with 8 samples.

Results

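Imprinted genes are transcribed mainly from the copy inherited from one parent. The 36 imprinted genes described here lie in 17 domains of the mouse genome, and their chromatin contacts were read from H3K27ac HiChIP of mouse embryonic stem cells. That assay joins pieces of DNA that are near each other in the nucleus and pulls down those carrying acetylated lysine 27 of histone H3, a mark of active promoters and enhancers. A deposited count is the number of read pairs of a loop, which joins 2 regions called anchors or lies inside 1 anchor. A loop belonged to the imprinted set when at least 1 anchor held, or lay within 5000 bp of, a GRCm38 transcription start of a member gene. By that rule 829 of 415681 loops and 27 of 30044 anchors were members, from 21 of the 36 genes and 14 of the 17 domains.

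The 8 libraries were 2 technical replicates from each of 4 lines. B6 (line B6 5-1) was C57BL/6J, and D2 (line D2 5-5) was DBA/2J. B6-13D2 (line QJ 6-1, B6.D2-(rs30079041-rs51756099)/Bakr) carried the D2 form of a chromosome 13 interval in a B6 genome. D2-13B6 (line XE 2-4) carried the B6 form of the interval in a D2 genome, and the labels named its far end by different markers in different places. Each genotype was thus 1 cell line. All lines grew with serum, LIF and the inhibitors PD0325901 and CHIR99021. Library totals ran from 737955 to 1425304 counts. Since the replicates are technical, p-values measure only the spread between libraries of 1 line, and the tests compare these lines. No anchor of a member gene lies on chromosome 13.

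In an imprinted domain, DNA methylation laid down in the egg or the sperm stays on one parental copy of a control region, and the unmethylated copy is often an active promoter. Several such promoters start long noncoding RNAs that keep neighbouring genes silent on the same chromosome, such as Airn at Igf2r and Kcnq1ot1 at Cdkn1c. After fertilisation the methylation is protected by zinc finger proteins such as ZFP57, which bind a methylated hexamer and recruit TRIM28. Embryonic stem cell lines are known to differ from each other in their imprints. Counts here were not separated by parental copy, and in bulk libraries a larger share of cells or copies with the mark cannot be told apart from more contacts per copy.

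RefSeq promoter windows (GRCm38.p6) were found for 28 of the 36 genes, and 17 windows of 15 genes lay whole inside a member anchor. The 6 shown belong to promoters whose anchors differ between the backgrounds below. Each is the 250 bases before the start, 5′ to 3′ on the strand of the gene, and capitals mark the hexamer TGCCGC bound by ZFP57 or its reverse complement GCGGCA.
Mest (chr6:30737800-30738049, plus strand): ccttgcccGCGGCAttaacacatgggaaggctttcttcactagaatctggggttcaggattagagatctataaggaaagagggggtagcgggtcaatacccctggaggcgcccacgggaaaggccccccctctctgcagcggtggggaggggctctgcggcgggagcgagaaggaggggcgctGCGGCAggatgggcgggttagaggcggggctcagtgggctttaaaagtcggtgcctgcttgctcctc
Peg3 (chr7:6730420-6730669, minus strand): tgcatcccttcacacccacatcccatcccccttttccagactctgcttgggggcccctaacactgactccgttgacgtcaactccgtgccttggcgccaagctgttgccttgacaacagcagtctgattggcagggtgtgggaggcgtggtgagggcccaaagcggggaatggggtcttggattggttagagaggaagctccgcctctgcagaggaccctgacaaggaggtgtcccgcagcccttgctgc
Zrsr1 (chr11:22971755-22972004, plus strand): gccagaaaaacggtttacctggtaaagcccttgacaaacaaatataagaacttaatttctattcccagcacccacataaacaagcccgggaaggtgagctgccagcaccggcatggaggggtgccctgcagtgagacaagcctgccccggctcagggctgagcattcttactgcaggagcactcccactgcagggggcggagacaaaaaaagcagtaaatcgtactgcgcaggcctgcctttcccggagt
Airn (chr17:12741061-12741310, plus strand): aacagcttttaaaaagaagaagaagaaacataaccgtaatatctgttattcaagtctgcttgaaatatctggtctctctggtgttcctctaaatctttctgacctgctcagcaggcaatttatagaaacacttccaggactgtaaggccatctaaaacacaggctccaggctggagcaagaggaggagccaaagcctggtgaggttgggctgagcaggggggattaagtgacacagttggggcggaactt
Meg3 (chr12:109540746-109540995, plus strand): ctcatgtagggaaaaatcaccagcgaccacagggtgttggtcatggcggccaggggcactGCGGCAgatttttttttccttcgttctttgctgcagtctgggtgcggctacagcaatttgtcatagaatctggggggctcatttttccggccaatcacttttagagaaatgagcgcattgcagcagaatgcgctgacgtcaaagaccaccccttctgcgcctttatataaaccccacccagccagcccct
Plagl1 (chr10:13090582-13090831, plus strand): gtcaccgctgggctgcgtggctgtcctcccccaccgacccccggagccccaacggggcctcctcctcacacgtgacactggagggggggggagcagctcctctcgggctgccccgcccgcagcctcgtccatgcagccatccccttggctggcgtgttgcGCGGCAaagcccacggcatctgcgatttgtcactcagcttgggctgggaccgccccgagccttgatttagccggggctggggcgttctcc
The hexamer was present in the windows of Mest, Meg3 and Plagl1, with 2 matches in Mest, and these letters did not occur in the windows of Peg3, Zrsr1 and Airn. Other windows in called anchors are not shown. Those of Usp29 (from 6730333) and Commd1 (from 22972867 and from 22982285) had 0 matches. A further Mest window (from 30737803) overlapped the shown one and had 2. Among all 32851 promoter windows of this length, 8.68% held it, and among the 12417 windows with at least 10 CG pairs the share was 18.3%. Of the 17 member windows inside an anchor, 6 windows of 5 genes held it, 2 of them the overlapping Mest windows, and 12 had at least 10 CG pairs. Of all 42 member windows read, inside an anchor or not, 8 held it, that is, 19%. The reference is a C57BL/6J genome, so the windows do not show DBA/2J sequence.

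Of the 36 members 58.3% had an anchor. Among the 28 protein-coding members the share was 57.1%, against 57.96% of all 21924 protein-coding genes. The other members are noncoding, and of all lincRNA genes 28.9% and of all antisense genes 43.8% had an anchor. The genes with no anchor within 5000 bp were H19, Igf2, Cdkn1c, Phlda2, Ascl2, Dlk1, Rian, Mirg, Rtl1, Zim1, Ndn, Magel2, Peg10, Sgce and Nap1l5. Among them are Igf2, a growth factor of the fetus, Ndn and Magel2, which act in the nervous system, and Peg10, a gene of the placenta. H19 lay 41538 bp from the nearest anchor, Igf2 118030 bp and Ndn 6569 bp, and Peg10 lay 57306 bp away. Snrpn, Mkrn3 and Peg13 had an anchor with too few counts to test, with 41, 18 and 43 counts over the 8 libraries. Their levels stayed at or below 6.75 CPM in every library, where CPM are counts per library size, here the summed anchor counts of a library after TMM scaling. The median span of a member loop was 642.5 kb against 590 kb for all loops. Contacts inside 1 anchor took 11.3% of member counts against 32.0% of all counts.

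Not every anchor lay at the main start of its gene. The Igf2r anchor held the start of the short transcript Igf2r-202, while the start of the gene record lay 9664 bp outside. The Nnat anchor held starts of Blcap, the gene that surrounds Nnat, and the nearest Nnat start lay 3992 bp outside. The 2 Grb10 anchors lay at inner starts, with the closer one 63683 bp from the start of the gene record. The main starts of Peg3 and Usp29, which face away from each other, shared 1 anchor, and the start of Zrsr1 lay in an anchor with an inner start of Commd1, its host gene. Anchors of Mest, Airn, Meg3, Kcnq1ot1, Impact, Mcts2 and Plagl1 held annotated starts of those genes.

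Taken by line, member loops took the smallest share of counts in B6 and the largest in D2. The second D2-13B6 library (0.2531%) lay between the D2 libraries (0.2526% and 0.2536%). In the B6 libraries the share was 0.199% (95% Wilson interval 0.19 to 0.208) and 0.21% (0.2 to 0.221). In the D2 libraries it was 0.253% (0.242 to 0.264) and 0.254% (0.243 to 0.265). B6-13D2 had 0.22% (0.211 to 0.23) and 0.225% (0.217 to 0.233), and D2-13B6 had 0.245% (0.237 to 0.253) and 0.253% (0.245 to 0.262). Read pairs carried no molecular identifiers, so these intervals cover counting error only. The 4 libraries with a B6 genome lay below the 4 with a D2 genome. Chromosome 11 was higher as a whole in D2-13B6. With chromosome 11 left out of both the members and the library counts, the order held. The shares were then 0.113% and 0.117% in B6, 0.12% (0.113 to 0.127) and 0.127% (0.121 to 0.134) in B6-13D2, 0.142% and 0.145% in D2, and 0.129% (0.123 to 0.136) and 0.133% (0.126 to 0.139) in D2-13B6, where the intervals of the congenic lines overlapped. With chromosome 11 left out of the members alone, the share of all library counts was 0.101% and 0.105% in B6, 0.108% and 0.114% in B6-13D2, 0.127% and 0.13% in D2, and 0.111% and 0.114% in D2-13B6, so the congenic lines overlapped.

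Summed over all loops of a domain, contacts were higher in all 4 libraries of D2 background than in all 4 of B6 background in 6 of the 14 domains. That order was found at 8.18% of all tested anchors and 5.15% of all tested loops, and no share was computed for sums over other regions. Of the 6, Commd1-Zrsr1 lies on chromosome 11, where the median background change over all tested anchors was 0.26 on the log2 scale. Sums are in CPM of loop counts, a scale that counts each loop once and not at both anchors, and were not tested. The Igf2r-Airn domain summed to 13.4 and 21.2 CPM in B6 and 17.5 and 16.2 CPM in B6-13D2. It summed to 38.9 and 26.1 CPM in D2 and 35 and 36.7 CPM in D2-13B6, so that the D2 background mean was 2.0 times that of the B6 background. The Mest-Copg2 domain had 34 and 29.2 CPM in B6, 37.1 and 28.8 CPM in B6-13D2, 61.3 and 58.7 CPM in D2, and 42.3 and 45.4 CPM in D2-13B6. In both domains the groups did not overlap, and the Mest-Copg2 ratio was 1.61. The ratio was 1.54 in Dlk1-Meg3, 1.42 in Peg3 and 1.36 in Commd1-Zrsr1, each without overlap. Gnas had 185 and 181 CPM in B6, 176 and 188 in B6-13D2, 235 and 226 in D2, and both D2-13B6 libraries at 206 CPM. The Plagl1 domain went the other way, with a ratio of 0.751 and overlapping groups. The remaining ratios ran from 1.06 for Mcts2 to 1.35 for Impact, with overlap.

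**Figure D1:**
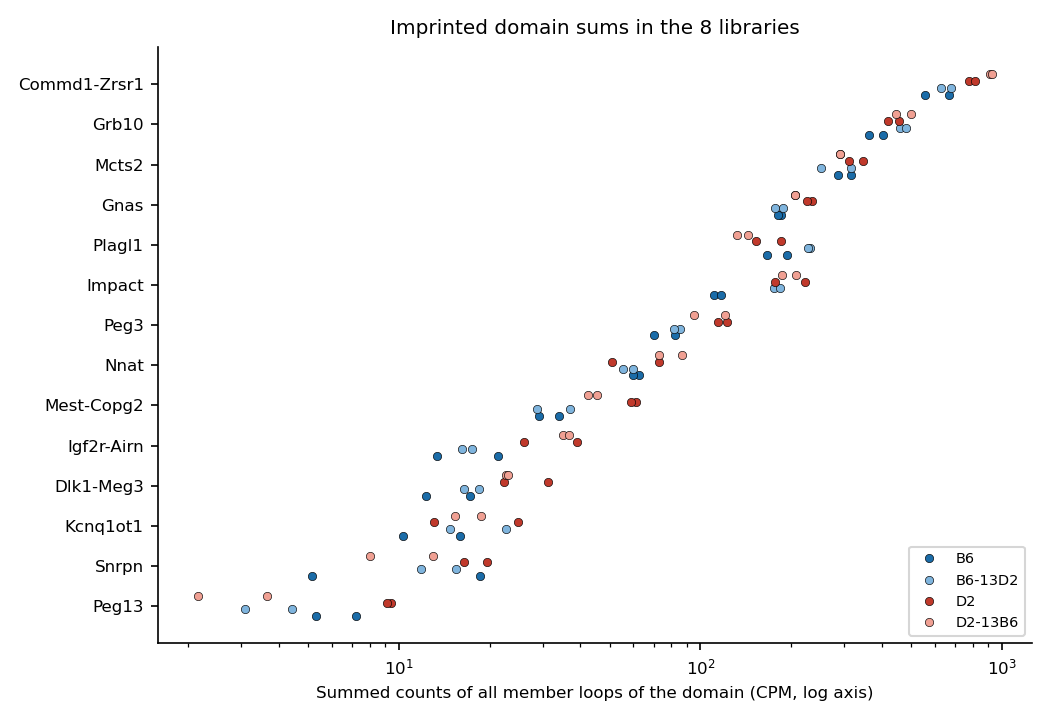
Summed counts of all member loops of each imprinted domain (CPM, log axis) in the 8 libraries, 1 point per library, coloured by line. In Igf2r-Airn, Mest-Copg2, Dlk1-Meg3, Peg3, Commd1-Zrsr1 and Gnas the 4 libraries of D2 background lie above the 4 of B6 background, and domains differ in their number of anchors, so levels are compared only within a domain.

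The background effect asked what differs between a D2 and a B6 genome whatever the interval. It is the mean of D2 and D2-13B6 minus the mean of B6 and B6-13D2 on the log2 scale. Counts were summed for each anchor over its loops, and 24 of the 27 member anchors had enough to test, that is, 10 counts or more in 2 or more libraries. A loop between 2 member anchors counts at both, as between the Impact anchors or between Airn and Igf2r, so such anchors are not independent. An anchor is called when its false discovery rate (FDR, edgeR quasi-likelihood test, Benjamini-Hochberg over all 21211 tested anchors) is below 0.05. Of the 24, 11 were called, 9 higher and 2 lower in the D2 background. Over all tested anchors 24.8% were called, 11.9% higher and 12.9% lower. The median log2 fold change was 0.24 for member anchors and 0.01 for all anchors, and 20 of the 24 lay above 0. In 6 member anchors all 4 libraries of D2 background exceeded all 4 of B6 background, and in 1 the order was reversed. Those patterns were found at 8.18% and 9.51% of all tested anchors.

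The background effect is the average of 2 pairs of lines, D2 minus B6 and D2-13B6 minus B6-13D2, which share no library. Within each pair both the genome and the interval differ. D2 minus B6 gave 6 member anchors called higher and 0 called lower, where 11.8% of all anchors were called, 5.64% in that direction. By edgeR, 10 member anchors had an unadjusted p under 0.05 in that pair, as had 24.1% of all tested anchors, and DESeq2 called 3 members. D2-13B6 minus B6-13D2 gave 6 higher and 3 lower, where 24.5% of all were called, and DESeq2 called 3 members. The shares of all anchors are of edgeR calls, and none is given here for DESeq2. Mest, Peg3 with Usp29, Zrsr1 with Commd1, and the 20-kb Commd1 anchor were called higher in both pairs. That makes 4 of 24, and 5.99% of all tested anchors were called with the same sign in both.

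**Figure D2:**
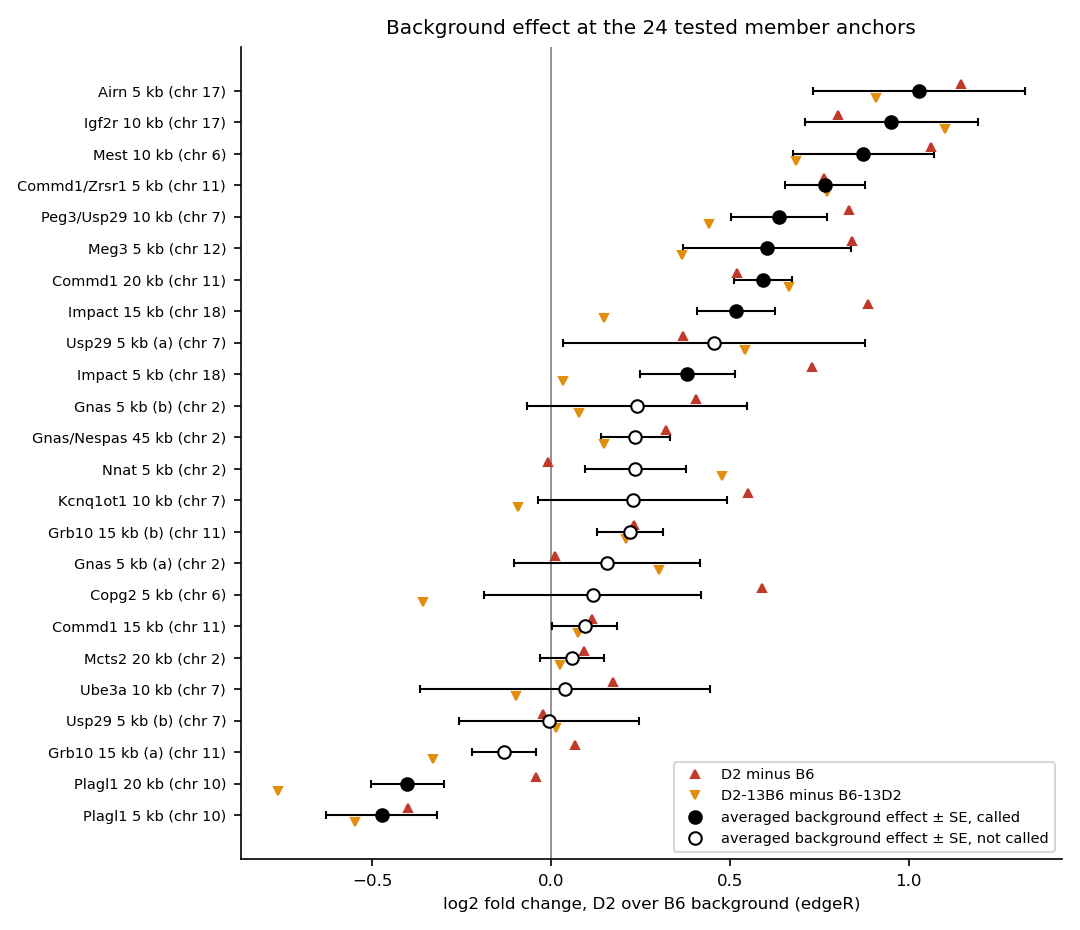
Background effect of the 24 tested member anchors (log2 fold change, D2 over B6 background). Circles are the averaged effect with its SE, filled when called, and triangles are the 2 pairs of lines, so that 9 filled circles lie right of 0, and both filled circles left of 0 are Plagl1. For the open circles of Grb10 and of the 15-kb Commd1 anchor, on chromosome 11, the sign or the call changes with the scaling, as given below.

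Mest encodes a hydrolase-like protein of mesoderm and is transcribed from the paternal copy. Its anchor (chromosome 6, 30735001 to 30745000) had 14.7 and 9.03 CPM in B6, 13.6 and 12.9 in B6-13D2, 25.4 and 25.5 in D2, and 20.8 and 21.8 in D2-13B6. The groups did not overlap, and every D2-background library was above 20 CPM. The background effect was 1.83-fold (log2 0.87, SE 0.20, FDR 0.000309). Read in 5-kb bins, on the scale of loop counts, the first bin, which holds the start of the printed promoter window, had mean levels of 10.4 CPM for B6, 13.5 for B6-13D2, 23.7 for D2 and 18.5 for D2-13B6. The bin beside it had means of 9.95, 8.18, 20.9 and 16.3 CPM in the same order. Of 8 other tested anchors within 250 kb of the domain, 0 were called higher and 1 lower, with a median log2 change of 0.05. Copg2, whose start lies on the other side of the Mest transcript, was not called (log2 0.12, SE 0.30, FDR 0.828).

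Peg3, a zinc finger gene, and Usp29, a ubiquitin protease gene, are both transcribed from the paternal copy. Their shared anchor (chromosome 7, 6725001 to 6735000) had 31.3 and 27.9 CPM in B6 and 37.2 and 40.5 in B6-13D2. It had 48.1 and 58.5 in D2 and 48.3 and 57.8 in D2-13B6, so the backgrounds did not overlap. The effect was 1.56-fold (log2 0.64, SE 0.13, FDR 0.000113). The 2 other Usp29 anchors, at inner starts (from 6945001 and from 6955001), were not called (log2 0.46, SE 0.42, and 0.00, SE 0.25). Around the domain, 3 of 9 other tested anchors were called higher and 0 lower, with a median log2 change of 0.38.

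Airn is the antisense RNA that starts inside Igf2r on the paternal copy, and Igf2r, a receptor that clears IGF2, is transcribed from the maternal copy. The Airn anchor (chromosome 17, 12740001 to 12745000) had 3.68 and 6.02 CPM in B6, 6.82 and 5.99 in B6-13D2, 14 and 6.75 in D2, and 11.5 and 12.4 in D2-13B6. One D2 library lay at the level of B6-13D2, so the groups overlapped. The background effect was 2.04-fold (log2 1.03, SE 0.30, FDR 0.0055). The Igf2r anchor beside it (12750001 to 12760000) had 6.75 and 10.5 CPM in B6, 8.06 and 7.83 in B6-13D2, 18.7 and 10.5 in D2, and 17.3 and 16.9 in D2-13B6. Its effect was 1.93-fold (log2 0.95, SE 0.24, FDR 0.0015). Both calls were lost under DESeq2 and without D2 replicate 1, the higher D2 library. Without it the effects were 0.71 (FDR 0.189) and 0.70 (FDR 0.0922), the highest FDRs among the settings tried, which began at 0.00307 and 0.000743. Within 250 kb, 2 of 5 other tested anchors were called higher, with changes from -0.27 to 1.65.

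Meg3, a long noncoding RNA of the maternal copy, gave the only anchor of its domain. This anchor (chromosome 12, 109540001 to 109545000) had 7.37 and 9.79 CPM in B6, 9.92 and 11.5 in B6-13D2, 12.7 and 18 in D2, and 13.7 and 14.2 in D2-13B6. Although the groups did not overlap, the effect of 1.52-fold (log2 0.60, SE 0.24) was only just called, with an FDR of 0.0487. The call was lost in 11 of 17 settings, with FDRs from 0.0392 to 0.304. It was lost without B6 replicate 1, D2 replicate 2, either B6-13D2 replicate and either D2-13B6 replicate, with FDRs from 0.0663 to 0.234. The partner anchor upstream, between Dlk1 and Meg3, was the only other tested anchor within 250 kb and was called higher, at 0.59.

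Zrsr1, a splicing factor gene copied into an intron of Commd1, is transcribed from the paternal copy. Its anchor (chromosome 11, 22970001 to 22975000) had 47.9 and 42.9 CPM in B6, 62 and 59.4 in B6-13D2, 74.8 and 80.2 in D2, and 104 and 103 in D2-13B6. The 4 lines took 4 separate levels, lowest in B6 and highest in D2-13B6. The 20-kb anchor at the main start of Commd1, a copper metabolism gene, and of Cct4 (22980001 to 23000000) had 186 and 194 CPM in B6, 219 and 212 in B6-13D2, 256 and 289 in D2, and 328 and 356 in D2-13B6. The effects were 1.70-fold (log2 0.77, SE 0.11, FDR 3.53e-08) and 1.51-fold (log2 0.59, SE 0.08, FDR 6.28e-09). Chromosome 11 as a whole was higher in D2-13B6. Over its 1660 tested anchors the median background change was 0.26, and D2-13B6 minus B6-13D2 had a median of 0.50. D2 minus B6, where that median was 0.00, gave 0.76 (SE 0.18, FDR 0.00105) for the Zrsr1 anchor and 0.52 (SE 0.12, FDR 0.00127) for the Commd1 anchor. With a scaling factor for each chromosome, the background effects were 0.52 (FDR 0.000142) and 0.34 (FDR 0.000516). Among 10 other tested anchors within 250 kb the median was 0.35, with 4 called higher and 1 lower.

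Impact, a regulator of protein synthesis under amino acid shortage, is transcribed from the paternal copy and had 2 anchors on chromosome 18. The 15-kb anchor (12965001 to 12980000) had 51 and 49.7 CPM in B6, against 88.7 and 93.5 in B6-13D2, 80.2 and 107 in D2, and 109 and 93.8 in D2-13B6. B6 stood below the other 3 lines, which overlapped. The 5-kb anchor (12955001 to 12960000) had 35.6 and 28.6 CPM in B6, 45.9 and 64.5 in B6-13D2, 45.4 and 63 in D2, and 55.8 and 59.1 in D2-13B6. The background effects were 1.43-fold (log2 0.52, SE 0.11, FDR 0.000114) and 1.30-fold (log2 0.38, SE 0.13, FDR 0.0249). D2 minus B6 gave 0.89 (FDR 7.13e-05) and 0.73 (FDR 0.0116), and D2-13B6 minus B6-13D2 gave 0.15 (FDR 0.477) and 0.03 (FDR 0.914). Whether the pairs differ is what the interval effect tests, and it was called at the 15-kb anchor (FDR 0.0269) and not at the 5-kb anchor (0.35, SE 0.13, FDR 0.106). The 5-kb anchor lost its call without B6 replicate 2, D2 replicate 2, B6-13D2 replicate 1 or D2-13B6 replicate 2, with FDRs from 0.0715 to 0.258. DESeq2 did not call it either (FDR 0.19), and over all settings its FDR ran from 0.00295 to 0.258.

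Plagl1, a zinc finger gene that regulates other imprinted genes and is transcribed from the paternal copy, was the one gene called lower in the D2 background. Its start anchor (chromosome 10, 13090001 to 13095000) had 28.9 and 33.1 CPM in B6 and 38.5 and 40.5 in B6-13D2. It had 21.4 and 25.5 in D2 and 27.9 and 26.2 in D2-13B6, with no overlap. The 20-kb anchor inside the gene (13100001 to 13120000) had 88.4 and 95.6 CPM in B6, 127 and 132 in B6-13D2, 80.2 and 99 in D2, and 71.3 and 81.4 in D2-13B6. B6-13D2 was highest at both anchors. The background effects were 1.39-fold lower (log2 -0.47, SE 0.15, FDR 0.0154) and 1.32-fold lower (log2 -0.40, SE 0.10, FDR 0.0014). At the start anchor the call was lost without B6 replicate 2, D2 replicate 1 or D2-13B6 replicate 2, with FDRs from 0.0542 to 0.0949. Its FDR ran from 0.0118 to 0.179 over all settings, with the highest under DESeq2, which did not call it. At the 20-kb anchor the congenic pair gave -0.76 (FDR 3.51e-06) and D2 minus B6 gave -0.04 (FDR 0.909), a difference between pairs that the interval effect below tests.

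**Figure D3:**
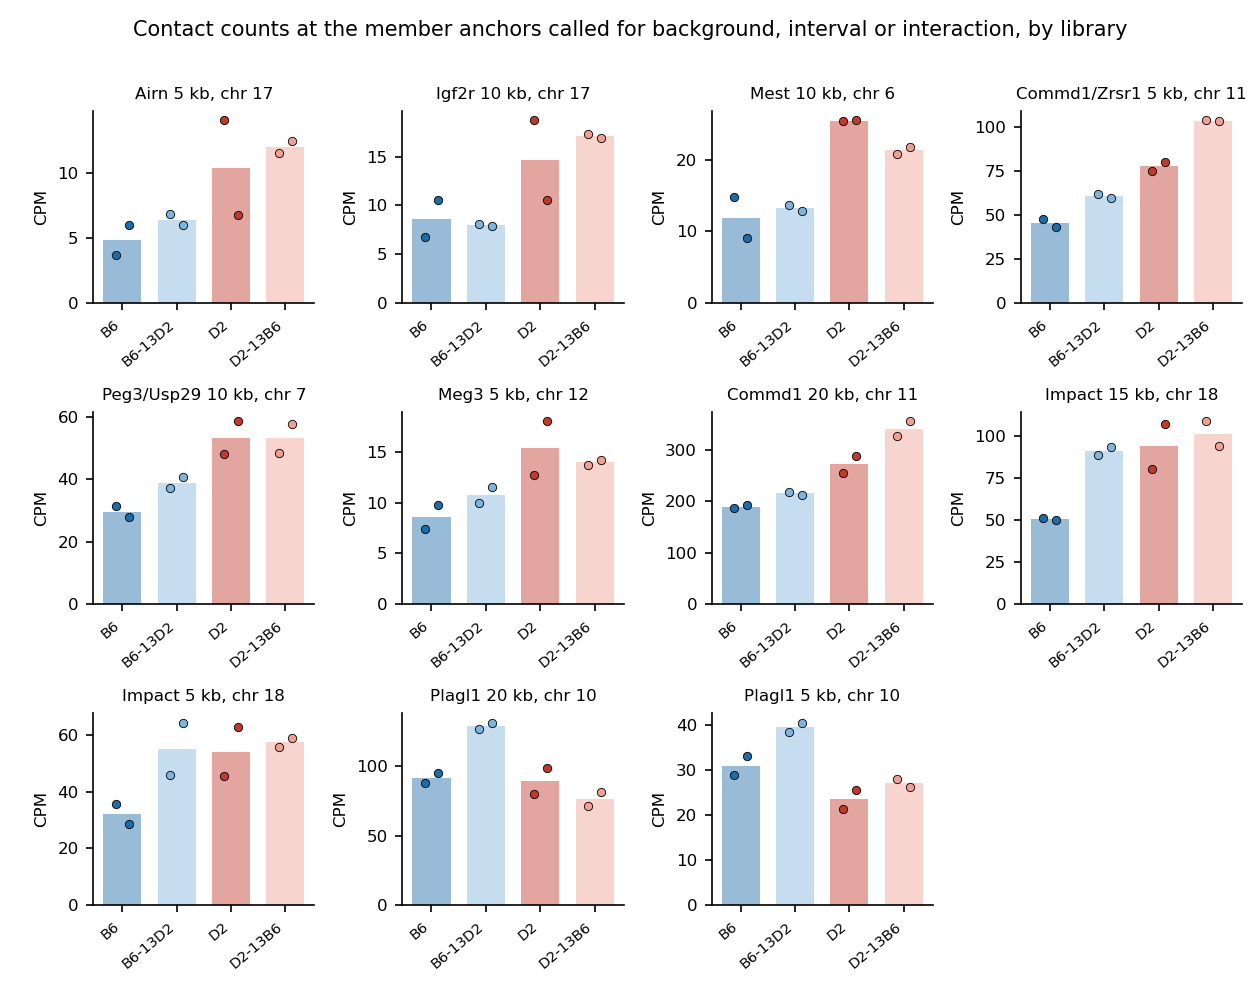
Contact counts (CPM of summed anchor counts) at the 11 member anchors called in the background effect, which include every anchor called in the interval effect or the interaction. Bars are the mean of a line and points its 2 libraries, and every axis starts at 0. B6 is lowest at the Impact anchors, B6-13D2 is highest at the Plagl1 anchors, and D2 and D2-13B6 are both high at Mest and at Peg3 with Usp29.

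The Gnas domain holds nested starts for the Nesp, Gnasxl and Gs-alpha transcripts and the antisense RNA Nespas. Its 45-kb anchor (chromosome 2, 174255001 to 174300000) had 101 and 91.9 CPM in B6, 101 and 107 in B6-13D2, 122 and 121 in D2, and 114 and 118 in D2-13B6. The groups did not overlap, but the effect of 1.18-fold (log2 0.24, SE 0.10, FDR 0.0617) was not called, nor were the contacts inside the anchor, the strongest of the domain (log2 0.18, SE 0.12, FDR 0.402). It was called with a scaling factor for each chromosome, with the trend on abundance removed, with the stricter filter, and without contacts inside the anchor, with FDRs from 0.023 to 0.0492. The 5-kb bins were not alike. The last bin, with the Nespas and Gnasxl starts, had 15.4 and 6.64 CPM of loop counts in B6, 12.4 and 14.8 in B6-13D2, 31.9 and 31.3 in D2, and 19.7 and 26.6 in D2-13B6, with no overlap between the backgrounds. The seventh bin, with the starts of Gnas-214, Gnas-215 and Nespas-201, had 18.5 and 23.9 CPM in B6 and 28.8 and 31 in B6-13D2. It had 38.9 and 50.9 in D2 and 28.5 and 32.4 in D2-13B6, and there the backgrounds overlapped. The eighth bin had means of 23.9 CPM for B6, 26.2 for B6-13D2, 32.3 for D2 and 36.6 for D2-13B6. In the first to the sixth bins the means for B6 were 26.5, 50.6, 28.1, 51.7, 32 and 32.6 CPM, and those for D2 were 31.6, 47.6, 31.8, 52.4, 39.8 and 29.6 CPM. The bins were not tested.

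**Figure D4:**
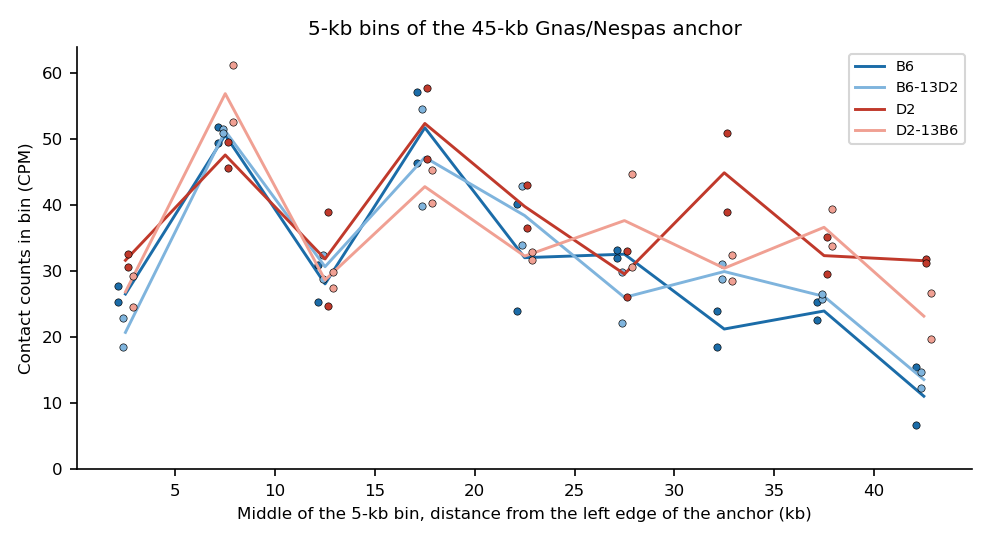
Contact counts of the 5-kb bins of the Gnas and Nespas anchor (CPM of loop counts) against the distance of the bin from the left edge of the anchor. Lines join line means and points are libraries, and the lines part at the right end, where the last bin has a mean of 11 CPM for B6 and 31.6 CPM for D2.

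The other tested anchors were not called. Kcnq1ot1, the antisense RNA of the Cdkn1c domain, had 6.14 and 9.03 CPM in B6, 13.6 and 9.21 in B6-13D2, 14 and 7.5 in D2, and 9.3 and 11.6 in D2-13B6 (log2 0.23, SE 0.26, FDR 0.584). Its replicates differed as much as its lines. Ube3a, a ubiquitin ligase of the maternal copy in neurons, had 3.07 to 6.2 CPM over all libraries (log2 0.04, SE 0.41). Mcts2, a gene copied into an intron of H13, had 188 and 163 CPM in B6, 151 and 196 in B6-13D2, 176 and 199.5 in D2, and 177 and 180 in D2-13B6 (log2 0.06, SE 0.09, FDR 0.688). The anchor at Blcap and Nnat, a gene of developing neurons, had 37.5 and 33.9 CPM in B6, 36 and 34.5 in B6-13D2, 41.4 and 29.2 in D2, and 44.3 and 53.8 in D2-13B6. Its background effect was 0.24 (SE 0.14, FDR 0.233), and it was called in the congenic pair alone (0.48, SE 0.18, FDR 0.039). The 2 short Gnas anchors had 0.16 (SE 0.26) and 0.24 (SE 0.31).

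Grb10, a growth inhibitor of insulin signalling, lies on chromosome 11, and its 2 anchors moved with the scaling. The anchor at 11940001 to 11955000 had 137 and 122 CPM in B6, 169 and 184 in B6-13D2, 133 and 140 in D2, and 139 and 142 in D2-13B6. Its background effect was -0.13 (SE 0.09, FDR 0.308), and with a factor for each chromosome it was -0.38 (FDR 0.000465). The anchor at 11960001 to 11975000 gave 0.22 (SE 0.09, FDR 0.0691) and, with that factor, -0.03 (FDR 0.871), and it was called higher without B6 replicate 1, D2 replicate 2 or D2-13B6 replicate 1. The 15-kb Commd1 anchor at 22945001 to 22960000 went from 0.09 (FDR 0.49) to -0.15 (FDR 0.222). For these 3 anchors the direction or the call thus depended on how chromosome 11 was scaled.

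The interval effect asked what the D2 form of the chromosome 13 interval changes in either genome. Of the 24 member anchors, 2 were called, both higher with the D2 interval, where 6.15% of all anchors were called, 2.90% in that direction. They were the 20-kb Plagl1 anchor (1.28-fold, log2 0.36, SE 0.10, FDR 0.0181) and the 15-kb Impact anchor (1.29-fold, log2 0.37, SE 0.11, FDR 0.0269). The Plagl1 call was lost without B6 replicate 1, D2 replicate 2 or D2-13B6 replicate 1, with FDRs from 0.0754 to 0.204. The Impact call was lost without B6 replicate 1, D2 replicate 2, B6-13D2 replicate 2 or D2-13B6 replicate 2, with FDRs from 0.0578 to 0.288. Over all settings the FDRs ran from 0.00918 to 0.204 and from 0.0166 to 0.288. DESeq2 called neither. With a scaling factor for each chromosome 3 anchors were called, since the first Grb10 anchor went from 0.20 (FDR 0.194) to 0.46 (SE 0.09, FDR 0.000225). The median interval effect over all tested anchors of chromosome 11 was -0.25.

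In the congenic pair with a B6 genome, B6-13D2 minus B6, 4 member anchors were called higher and 0 lower, where 5.25% of all anchors were called, 3.47% higher. They were both Impact anchors (1.81-fold, log2 0.86, FDR 0.000231, and 1.73-fold, log2 0.79, FDR 0.00652), the 20-kb Plagl1 anchor (1.41-fold, log2 0.50, FDR 0.0186) and the first Grb10 anchor (1.36-fold, log2 0.45, FDR 0.0209). By edgeR 6 had an unadjusted p under 0.05, as had 18.9% of all tested anchors, and DESeq2 called 1 member. In D2 minus D2-13B6, the pair with a D2 genome, 0 were called by edgeR or by DESeq2, where 5.69% of all were called by edgeR. By edgeR 4 members had an unadjusted p under 0.05, as had 17.8% of all tested anchors.

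The interaction tested whether the interval effect differs between the genomes. It was called at 4 member anchors, all negative, which means that the signed effect of the D2 interval was lower in the D2 genome, where 4.74% of all anchors were called, 3.69% in that direction. Both Impact anchors share the loop between them, as do the Zrsr1 and Commd1 anchors, so the 4 calls are not independent. At Impact it was -0.98 (SE 0.22, FDR 0.00214) for the 15-kb anchor and -0.89 (SE 0.26, FDR 0.032) for the 5-kb anchor. At the Zrsr1 anchor it was -0.83 (SE 0.23, FDR 0.016), and at the 20-kb Commd1 anchor -0.51 (SE 0.16, FDR 0.0498). The Impact interval effects were 0.86 and 0.79 in the B6 genome and -0.12 and -0.09 in the D2 genome. On chromosome 11 they had opposite signs, 0.41 and -0.42 at the Zrsr1 anchor and 0.18 and -0.33 at the Commd1 anchor, and none of these 4 values was called. Over all tested anchors of chromosome 11 the median interaction was -0.41, and with a factor for each chromosome neither chromosome 11 anchor was called (-0.40, FDR 0.394, and -0.09, FDR 0.853). On chromosome 18 that median was 0.02. The 15-kb Impact anchor lost its call only without D2 replicate 1 (-0.77, FDR 0.1) among 17 settings, in which its FDR ran from 0.000826 to 0.1. The 5-kb Impact anchor lost its call in 9 of 16 settings, with FDRs from 0.0055 to 0.325. The Zrsr1 anchor lost it in 7, with FDRs from 0.00989 to 0.394, and the Commd1 anchor in 14, with FDRs from 0.0332 to 0.853, including every setting that left out 1 library.

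Loop by loop, 113 of the 829 member loops were tested, those with 5 counts or more in 2 or more libraries. In the background effect 13 were called, all higher in the D2 background, where 8.85% of all 44706 tested loops were called, 4.28% higher and 4.57% lower. The median log2 change was 0.20 for member loops and 0.02 for all, and 71 of 113 lay above 0. Of the 13, 9 lay on chromosome 11, and 4 were among the 60 tested member loops elsewhere. Tested anchors of chromosome 11 had a median background change of 0.26. The median of the member loops and the 71 above 0 include chromosome 11 and were not computed without it. Of those 4, 1 would not have passed the count filter on the libraries of B6 background alone. The same held for 23 of the 113 tested loops, and 12 would not have passed on the D2 background alone, so the counts and the median of the tested loops are partly fixed by the filter. With a factor for each chromosome 11 were called, 8 higher and 3 lower, the last at Grb10 and Commd1. In 15 member loops all 4 D2-background libraries exceeded all 4 of B6 background, and in 0 the reverse, where 5.15% and 5.65% of all tested loops had those orders. D2 minus B6 gave 6 member loops called higher and 0 lower, where 2.65% of all loops were called, and DESeq2 called 0 members. D2-13B6 minus B6-13D2 gave 6 higher and 4 lower, where 8.54% were called, and DESeq2 called 2 members. The 4 lower were 3 loops of the 20-kb Plagl1 anchor, spanning 0, 17.5 and 77.5 kb (-0.76, -0.99 and -1.11), and a 40-kb loop from Grb10 to Ddc (-0.88). A single member loop was called in both pairs, against 1.34% of all loops.

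The 4 called loops off chromosome 11 lay at Peg3 and Impact. The Peg3 anchor contacted an anchor 37.5 kb away (6750001 to 6785000) with 31.9 and 22.6 CPM of loop counts in B6, 35 and 39.1 in B6-13D2, 57.8 and 53.5 in D2, and 36.5 and 44.6 in D2-13B6. D2 was highest, and D2-13B6 overlapped B6-13D2. The effect was 0.56 (SE 0.18, FDR 0.026), and it was lost without B6 replicate 2, D2 replicate 1, B6-13D2 replicate 1 or D2-13B6 replicate 2, with FDRs from 0.0794 to 0.147. DESeq2 (FDR 0.245) and no filter on low counts (FDR 0.67) did not call it. The longest Peg3 loop with at least 40 counts reached Zfp78, 365 kb away, with 1.03 and 1.33 CPM in B6, 5.15 and 5.17 in B6-13D2, 8.26 and 5.21 in D2, and 5.84 and 8.64 in D2-13B6. It was not called (1.46, SE 0.54, FDR 0.067), though the backgrounds did not overlap.

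The loop between the 2 Impact anchors had 34 and 21.2 CPM in B6, 48.4 and 69.4 in B6-13D2, 44.8 and 73 in D2, and 63.5 and 61.9 in D2-13B6. As at the anchors, both B6 libraries lay below the other 6. Its background effect was 0.55 (SE 0.17, FDR 0.0163), and it was the one member loop of 113 called in B6-13D2 minus B6, where 0.879% of all loops were called, and DESeq2 called 0 members there. A loop from Impact to Osbpl1a, 27.5 kb away, rose by 0.74 (SE 0.20, FDR 0.00443). The call at the first was lost without B6 replicate 2, D2 replicate 2 or B6-13D2 replicate 1 (FDRs 0.115 to 0.307), and at the second without B6 replicate 1, B6-13D2 replicate 2 or D2-13B6 replicate 1 (FDRs 0.0599 to 0.104). DESeq2 called neither (FDRs 0.213 and 0.157), nor did the fit with no filter on low counts (FDRs 0.732 and 0.519). The third, to Riok3 and Rmc1 812.5 kb away, held 25 counts in all, with 1, 1, 2 and 0 in the B6-background libraries and 2, 7, 5 and 7 in the others. It passed the filter only through the D2 background, so its difference is no support, and it lost its call in 12 of 14 settings (2.17, SE 0.76, FDR 0.0497).

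On chromosome 11 the loop with the smallest FDR, which was also the one called in both pairs, joined the 20-kb Commd1 anchor to an anchor 105 kb away (23060001 to 23130000). It had 54.6 and 55.8 CPM in B6, 55.6 and 57.6 in B6-13D2, 82.6 and 100 in D2, and 79.5 and 117 in D2-13B6, with no overlap (0.76, SE 0.14, FDR 5e-06). D2 minus B6 alone gave 0.72 (FDR 0.032), and with a factor for each chromosome the background effect was 0.49 (FDR 0.00868). The loop from the Zrsr1 anchor to the Commd1 anchor, 17.5 kb long, rose by 0.84 (SE 0.18, FDR 9.7e-05) and by 0.58 (FDR 0.0187) with that factor. The strongest Grb10 loop, 147.5 kb to the anchor at Ddc and Fignl1, had 105 and 93 CPM in B6, 99.9 and 108 in B6-13D2, 127 and 111 in D2, and 155 and 178 in D2-13B6. Its effect of 0.47 (SE 0.12, FDR 0.00212) was 0.20 (FDR 0.336) with that factor.

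Other domains had a leading loop that was not called. Mcts2 to Bcl2l1, 117.5 kb, had 85.5 to 128 CPM over the 8 libraries (0.11, SE 0.12, FDR 0.654). The loop from Airn to Igf2r, 12.5 kb, had 4.12 and 7.97 CPM in B6, 7.21 and 5.91 in B6-13D2, 18.9 and 3.91 in D2, and 12.4 and 10.8 in D2-13B6 (0.92, SE 0.35, FDR 0.0855). Its D2 libraries were the highest and the lowest of the 8. Meg3 to the anchor between Dlk1 and Meg3, 15 kb, had 8.24 and 10.6 CPM in B6, 13.4 and 14 in B6-13D2, 17.7 and 18.3 in D2, and 15.3 and 18.7 in D2-13B6 (0.62, SE 0.28, FDR 0.171), with no overlap between the backgrounds. Mest to Ssmem1 and Tmem209, 230 kb, gave 0.85 (SE 0.41, FDR 0.212). Contacts inside the 20-kb Plagl1 anchor gave -0.45 (SE 0.19, FDR 0.125), and Kcnq1ot1 to Cd81 and its neighbours -1.37 (SE 0.92, FDR 0.42).

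The longest loops with at least 40 counts in their domains were not called either. They spanned 447.5 kb at Mcts2 (-0.25, SE 0.49), 450 kb at Plagl1 (-0.79, SE 0.45), 512.5 kb at Commd1 (-0.37, SE 0.48), 515 kb from Grb10 to Cobl (-0.27, SE 0.49), 235 kb at Nnat (-0.07, SE 0.28), 200 kb from Gnas to Stx16 (0.73, SE 0.36) and 112.5 kb at Impact (0.15, SE 0.27).

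For the interval effect 0 of 113 member loops were called, where 0.989% of all loops were. By edgeR 13 had an unadjusted p under 0.05, that is, about the share of all tested loops, 10.7%, and DESeq2 called 0. For the interaction 0 were called by edgeR or by DESeq2, where 0.602% of all loops were called by edgeR. By edgeR 9 member loops had an unadjusted p under 0.05, as had 8.97% of all tested loops.

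**Figure D5:**
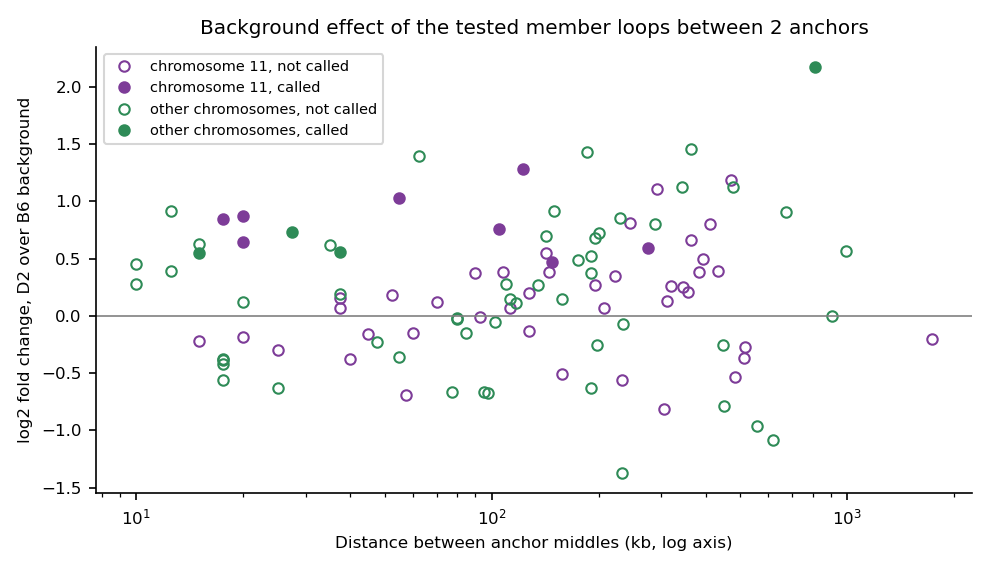
Background effect (log2 fold change, D2 over B6 background) of the 105 tested member loops that join 2 anchors, against the distance between anchor middles (kb, log axis). Filled points are called, and all of them lie above 0, on chromosome 11 or, for Peg3 and Impact, elsewhere, while with a scaling factor for each chromosome 3 chromosome 11 loops are called lower.

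Neighbouring genes of the domains and genes that keep imprints were read from fixed lists. Of 35 neighbours, 22 had an anchor, and of their 24 tested anchors 4 were called higher in the D2 background (Casd1, Cobl, Trappc9 and 1 of Ddc) and 1 lower (another of Ddc). The Blcap anchor and 1 H13 anchor are also the member anchors of Nnat and Mcts2. The median over the 24 was 0.05, where 24.8% of all anchors were called, 11.9% higher and 12.9% lower. Cobl and Ddc lie on chromosome 11, and with a scaling factor for each chromosome neither higher call was kept (0.10, FDR 0.432 at Cobl, and 0.09, FDR 0.409 at Ddc), 2 Ddc anchors were lower, and Herc3 was called higher (0.60, FDR 0.025). All 12 imprint-keeping genes had an anchor. Of their 18 tested anchors, 3 were called higher and 1 lower, with a median of 0.06. In both directions together, neither list was called more often than the 24.8% of all anchors. The higher calls alone, 4 of 24 and 3 of 18, were above the 11.9% of all anchors. Neither difference was tested. Zfp57 had 870.5 and 764 CPM in B6, 932 and 968 in B6-13D2, 918 and 965 in D2, and 1187 and 1326 in D2-13B6 (0.30, SE 0.07, FDR 0.000653). Its partner Trim28 had 287 and 244 in B6, 261 and 312 in B6-13D2, 292 and 284 in D2, and 398 and 445 in D2-13B6 (0.33, SE 0.08, FDR 0.000896). In both genes D2-13B6 was above the other 3 lines. For Zfp57 both B6 libraries were the lowest, and for Trim28 the libraries of the other 3 lines overlapped. Naa10 was higher (0.31, SE 0.10, FDR 0.015), a call lost with a factor for each chromosome (0.16, FDR 0.242), and 1 of 3 Dnmt1 anchors, at the maintenance methyltransferase gene, was lower (-0.51, SE 0.18, FDR 0.0278). The interaction was called negative at 3 of the 24 neighbour anchors (Cobl and Ddc) and positive at 0. Among the 18 imprint-keeping anchors it was called negative at 3 (Tet1, Trim28 and Zfp57) and positive at 0. The part of these genes in the results at member anchors was not tested.

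The lines carried the marks of embryonic stem cells. All 10 stem cell markers (Pou5f1, Sox2, Nanog and others) had an anchor, with summed levels of 2805 to 3274 CPM in B6, 3004 to 3422 in B6-13D2, 3124 to 3128 in D2 and 3623 to 4018 in D2-13B6, and 5 of their 10 tested anchors were called higher in the D2 background, against 11.9% of all anchors. The 5 primitive endoderm, 5 neural and 3 mesoderm markers had none. Of 6 fibroblast markers 4 had an anchor, with Thy1 and Twist1 at none, and summed to 43.7 to 47.3 CPM in B6, 33.2 to 37.2 in B6-13D2, 44.2 to 53.5 in D2 and 43.4 to 53.8 in D2-13B6. Of 5 trophoblast markers Cdx2 alone had one, at 4.68 to 8.68 CPM. The interaction was called negative at 3 of the 10 stem cell marker anchors (Dppa5a, Pou5f1 and Sox2) and positive at 0. The part of these levels and calls in the results was not tested.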

How the data were processed

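H3K27ac HiChIP counts were used from 8 libraries, 2 technical replicates of each of 4 embryonic stem cell lines. The deposited values are raw counts of read pairs per loop, in 1 table over all libraries and in 1 list per library on 5-kb bins, per the file headers. The submitters' processing notes name mm10, BWA 0.7.18, SAMtools 1.19.2 and edgeR 3.34.1, without their roles; how loops were called is not given in the sources used here. Since mm10 is a C57BL/6J genome, reads of D2 lines were placed on the sequence of another strain, and what that does to their counts was not tested.

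Anchors were matched to GRCm38 transcript starts of the 36 members within 5000 bp. The members and gene lists were chosen with earlier results of these data known. Counts were summed per anchor over its loops, each loop inside 1 anchor counted once. edgeR 4.0.16 (R 4.3.3, limma 3.58.1) fitted 1 mean per line with TMM factors and the quasi-likelihood test, for anchors reaching 10 counts, and loops reaching 5 counts, in 2 or more libraries. Adjustment was by Benjamini-Hochberg over all tested anchors or loops, with calls at an FDR under 0.05. SEs are the log2 change over the root of F. Library totals were 737955 to 1425304 counts, and a member loop held a median of 3 counts over all libraries, so most loops were too shallow to test.

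Values are printed for every called anchor and, for each domain, for its anchors, its strongest, its most clearly called and its longest loops. Promoter windows were read from RefSeq (GRCm38.p6), with chromosome 18 left out. Alternatives were RLE factors, library totals, a factor per chromosome, removal of the trend on abundance, DESeq2 1.42.0, other filters, other member rules, sums without contacts inside an anchor, a replicate block and each library left out. The fits were tested on simulated data. Figures were drawn with matplotlib 3.10.9.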

Additional observations from a re-analysis of the deposited data

Results flagged for a closer look

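The difference between lines with the D2 and the B6 interval was not alike in the D2 and B6 genomes, by the test of the difference itself, at 4 of 24 member anchors. Over all tested anchors 4.74% were called. Each genotype was 1 line, so the interval cannot be told apart from other differences between lines. Neighbouring anchors share loops, so the 4 calls are not independent. The differences, D2 minus D2-13B6 less B6-13D2 minus B6 on the log2 scale, were -0.98 for the Impact anchor starting at 12965001 and -0.89 for the Impact anchor starting at 12955001. They were -0.83 for the anchor of Zrsr1 and Commd1 starting at 22970001 and -0.51 for the Commd1 anchor starting at 22980001. The last 2 lie on chromosome 11, where the median difference over 1660 tested anchors was -0.41. The calls at the last 2 and at the Impact anchor starting at 12955001 were lost in 7 of 17, 14 of 17 and 9 of 16 settings, and without D2 replicate 1 none of the 4 was called. Groups held 2 libraries, too few to look for a library apart from its group.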

How the results depend on the processing

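No called value reversed its direction. Among 1385 values of single anchors and loops under the alternatives, 1241 stayed on the same side of the threshold, 129 lost a call and 15 gained one, and 80 uncalled values changed sign, leaving out 28 values for which DESeq2 gave no adjusted p. For the background effect, member anchors called went from 11 of 24 to 6 with DESeq2 and to 6 of 12 tested with only the start of the gene record, and ran from 8 to 11 with 1 library left out. Member loops called went from 13 to 5 with DESeq2 and to 0 with no filter on low counts, and ran from 7 (without B6 replicate 2) to 10 with 1 library left out. Off chromosome 11 alone, an alternative chosen after seeing the data, 9 of 19 tested anchors and 4 of 60 tested loops were called. Shares over all anchors or loops are not given for DESeq2 and the other alternatives, so these member counts have no reference. For the interval effect, 2 anchors became 0 with DESeq2, 1 with no filter and 0 of 12 with only the start of the gene record, and 0 to 3 with 1 library left out (0 without B6 replicate 1 or D2 replicate 2, and 1 without B6-13D2 replicate 2 or either D2-13B6 replicate). Called loops went from 0 to 1 with a factor per chromosome and to 1 with a stricter filter. For the interaction, 4 anchors became 1 with library totals alone, 1 with a factor per chromosome and 1 with the trend on abundance removed, and 0 (without D2 replicate 1) to 4 with 1 library left out, with 1 without either D2-13B6 replicate and 2 without B6 replicate 2 or B6-13D2 replicate 2. With the replicate number as a block, counts were 10 anchors and 12 loops for the background effect and 2 anchors for the interaction. Deviations of same-numbered libraries correlated at -0.155 to 0.026 over anchors, so the numbers do not pair the samples. The cause of these changes was not tested, beyond the fewer samples, members or features that an alternative itself leaves. Depth limits the loops, most of which were too shallow to test.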
